A study of Mus musculus with 8 samples.

Results

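Hsd11b1, Sult1a1 and Plin4 are 3 genes tied to glucocorticoid hormone, and they were read here by 4 spots out of the 12131 spots, for 8653 genes, that carry a gene name on these arrays. The genes were chosen with results from these same arrays known. For Sult1a1 and Plin4 those results were their mean ratios, and what led to Hsd11b1 is not recorded in the sources used here. The ratios of all 3 are therefore given as a description, with no test. Hsd11b1 was read by spots 7183 and 6433, Sult1a1 by spot 85 and Plin4 by spot 6819.

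Corticosterone, the main glucocorticoid of mice, reaches the brain from the blood and binds the receptors encoded by Nr3c1 and Nr3c2, which then act on transcription in the nucleus. Hsd11b1 encodes an enzyme of the endoplasmic reticulum that turns the inactive 11-keto steroid back into corticosterone inside the cell, using NADPH supplied by the product of H6pd, and the enzyme encoded by Hsd11b2 runs the opposite way. Sult1a1 encodes a cytosolic sulfotransferase that adds sulfate to small phenols, and Plin4 encodes a perilipin, a coat protein of lipid droplets. Both are known to be raised by glucocorticoids in some tissues.

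The arrays held brain RNA of 4 male mice, 19 weeks old, of the genotype labelled ADAR-/-/GluR-BR/R, each set against 1 wildtype brain RNA pool made from males, also 19 weeks old. These mice lack ADAR2, an RNA-editing adenosine deaminase encoded by Adarb1, and carry Gria2 alleles for the arginine form of the GluR-B receptor subunit that editing normally makes. Every mutant was run on a pair of arrays with exchanged dyes, so the mouse is the replicate (n = 4) and there are 8 arrays. The design gives 4 mice in the pool and the labelling protocol another number, and the pool is in either case 1 control sample whose own spread is not known. The labels name no strain, and no group with the Gria2 alleles alone was analysed here.

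Values below are log2 ratios with the median of their array subtracted. Each RNA's dye is labelled, but the numerator of the ratio is not, so results are given as 2 quantities. The mean ratio averages both arrays of a mouse. It compares mutant with pool if the numerator was the same RNA on every array. The swap component subtracts the array with the mutant in Cy3 from the array with the mutant in Cy5 and divides by 2. It compares mutant over pool if Cy5 was the numerator throughout. With the other RNA or dye as numerator every sign below turns, so which of mutant and wildtype was higher is not settled. If 1 dye was the numerator throughout, the difference between mutant and pool cancels in the mean ratio. If 1 RNA was, it cancels in the swap component. Which of the 2 quantities compares mutant with pool is thus not settled either. The arrays held 20211 to 20559 usable ratios out of 20794 spots. The spread over spots was wider on every array with the mutant in Cy3 (SD 1.04 to 1.32) than on every array with the mutant in Cy5 (0.812 to 0.852). Spot intensities were not used here, so no level of any gene in brain is given, the brain origin of the RNA was not checked against marker levels, and precision is limited by the number of arrays.

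Adarb1, the disrupted gene, was read by 3 spots. Its swap component was -1.23 ± 0.352 (SD, n = 4 mice) at spot 18422, -1.33 ± 0.696 at spot 18759 and -0.10 ± 0.195 at spot 14946. The mean ratio at these spots was 0.70 ± 0.313, 0.26 ± 1.11 and 0.12 ± 0.335. Both spots with a low swap component are thus low in the reading Cy5 over Cy3. Among 18797 spots with values on all 8 arrays, spots 18759, 18422 and 14946 stood at ranks 4, 8 and 8185 from the lowest swap component. By absolute mean ratio they stood at the 28.9th, 70th and 13.4th percentiles of all spots. The sources used here do not say whether a spot lies in the disrupted part of the transcript.

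Hsd11b1, the enzyme that regenerates corticosterone, had opposite signs in the 2 dye orientations at spot 7183. With the mutant in Cy5 the log2 ratios were 1.17, 1.44, 1.11 and 1.14 in mice 1 to 4. With the mutant in Cy3 they were -0.65, -0.95, -1.50 and -1.49 in the same mice. All 4 values of the first orientation lay above all 4 of the second, and no array departed from this pattern. The orientation means were 1.21 ± 0.152 and -1.15 ± 0.42 (SD, n = 4 arrays each). The swap component was 0.91, 1.19, 1.31 and 1.31 in the 4 mice, a mean of 1.18 ± 0.188 (SD, n = 4), or 2.27-fold on the linear scale. The mean ratio was 0.26, 0.24, -0.20 and -0.18, a mean of 0.03 ± 0.253, so mice 1 and 2 lay above 0 and mice 3 and 4 below it.

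On the reading Cy5 over Cy3, spot 7183 was thus higher in all 4 mutants than in the pool, opposite in sign to Adarb1 spots 18422 and 18759. On the reading Cy3 over Cy5 both signs turn, to -1.18 for Hsd11b1. With the same RNA as numerator on every array, mutant and pool differ at this spot by the 0.03 of the mean ratio, and the 1.18 is a difference between dye orientations. In brain RNA, more cells that express a gene and more RNA per cell cannot be told apart. Among the 18797 spots with values on all 8 arrays, spot 7183 stood at rank 31 from the highest swap component. Of these, 195 (1.04%) were positive on all 4 arrays with the mutant in Cy5 and negative on all 4 with the mutant in Cy3. The opposite signs were held by 123, and 4090 had 1 sign on all 8 arrays.

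**Figure D1:**
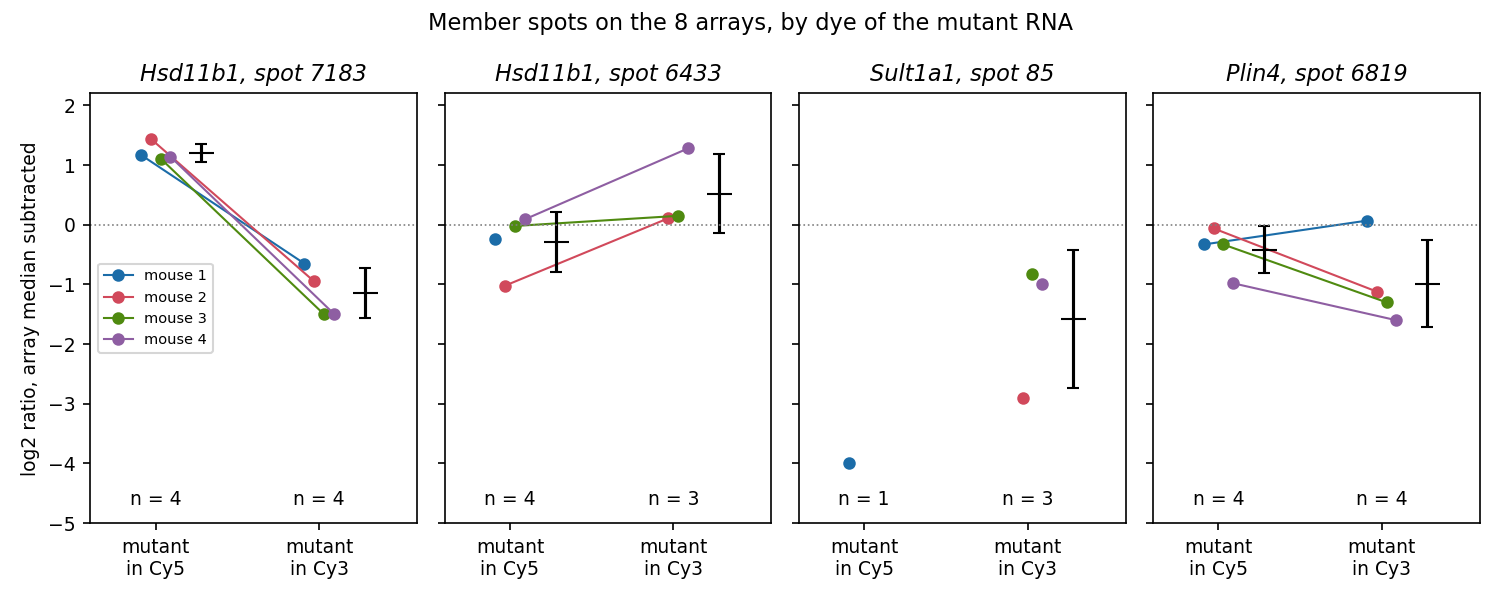
Log2 ratios (vertical axis, array median subtracted) of the 4 spots of Hsd11b1, Sult1a1 and Plin4 on arrays with the mutant RNA in Cy5 or in Cy3. Each point is an array, lines join the 2 arrays of a mouse, and black bars are the mean and SD of an orientation where n is above 1. Spot 7183 changes sign with the dye in all 4 mice, spot 6433 does not share this, and Sult1a1 has values on 4 arrays.

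The other spot of Hsd11b1, 6433, did not show this pattern. Its log2 ratios were -0.23, -1.02, -0.02 and 0.09 with the mutant in Cy5, and 0.11, 0.15 and 1.28 in mice 2, 3 and 4 with the mutant in Cy3, where mouse 1 had no value. The 3 highest values all belonged to the orientation with the mutant in Cy3, while the value of 0.09 in mouse 4 lay close to the 0.11 and 0.15 of mice 2 and 3. The swap component was -0.57, -0.08 and -0.60 in mice 2, 3 and 4, a mean of -0.42 ± 0.287 (SD, n = 3), the opposite sign to spot 7183. The mean ratio was 0.02 ± 0.492 (SD, n = 4). At 3 of its 7 values the ratio without the array's constant matched a ratio of whole numbers up to 10 within 0.001 on the log2 scale. None of the 8 values of spot 7183 matched, and 4.76% to 8.73% of all values per array did.

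Both spots carry the same RefSeq transcript in the platform annotation. Over mice 2 to 4, where both had all values, their swap components were 1.27 and -0.42, a difference of 1.69. Of 1741 genes with exactly 2 spots measured this way, Hsd11b1 included, 3 had a larger difference, and the median difference was 0.301. In the mean ratio the same spots differed by 0.01, against a median of 0.475 over 1895 genes. The value of Hsd11b1 in the swap component therefore rests on spot 7183 alone.

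**Figure D2:**
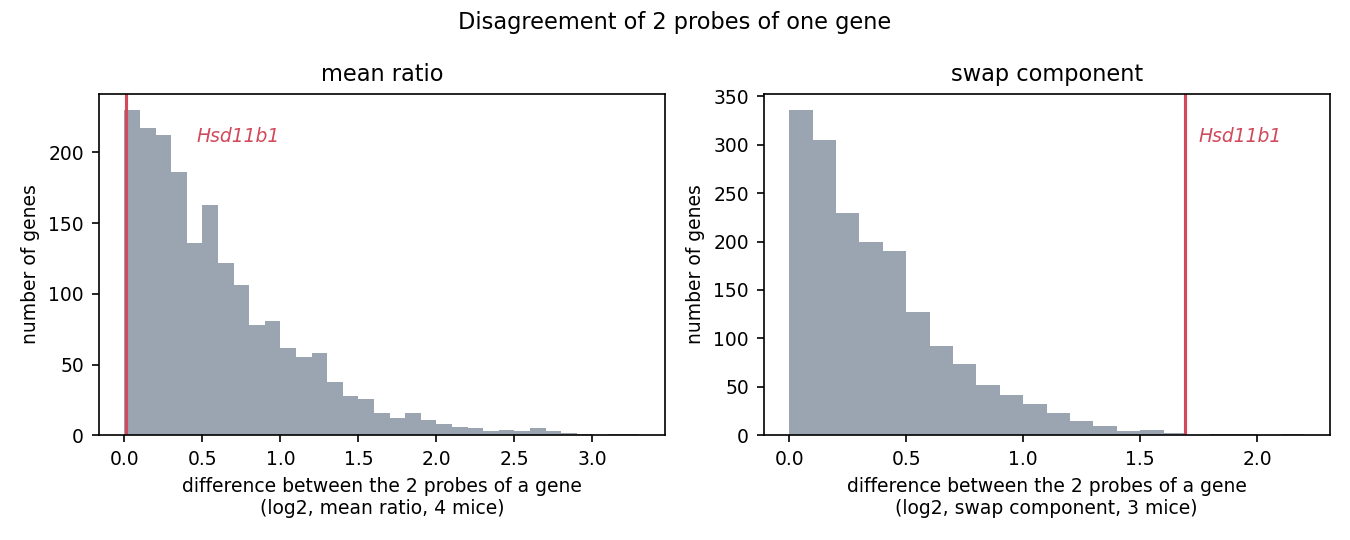
Number of genes (vertical axis) by the absolute difference between the 2 spots of one gene (horizontal axis, log2, bins of 0.1), for the mean ratio and the swap component. The red lines mark Hsd11b1, at 0.01 in the mean ratio and at 1.69 in the swap component, where 3 genes lie further out.

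The names used here rest on an offset of 11 spots between the platform annotation and the value rows, which was found from the data and is not stated in the labels. Across 2543 genes with 2 or more spots, the first 2 spots had a Spearman rho of 0.255 in the mean ratio at the shift of 11, and -0.0102 across 2537 genes at the same spot number. Among genes with a spot within 400 places of a member spot, rho lay between 0.119 and 0.377 at the shift and between -0.0423 and 0.0825 without it, over both quantities. Around spot 7183 it was 0.125 and 0.119 at the shift, the lowest of the 4 neighbourhoods in each quantity. Being taken across genes, these rho values are descriptions. At the same spot number Hsd11b1 would be read at spots 6422 and 7172, with swap components of -0.16 and -0.28.

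Sult1a1, the phenol sulfotransferase, had values on 4 of the 8 arrays and never on both arrays of a mouse. Its log2 ratio was -3.99 in mouse 1 with the mutant in Cy5, and -2.91, -0.82 and -1 in mice 2, 3 and 4 with the mutant in Cy3. All 4 values were below 0, and mice 1 and 2 lay far below mice 3 and 4. The mean ratio was -2.18 ± 1.53 (SD, n = 4), 4.53-fold on the linear scale, at rank 45 from the lowest of 20595 spots. That rank sets values from 1 array per mouse beside spots that mostly average 2, as 18797 of the 20794 spots had all 8 values. Because mouse 1 and the other mice were read in opposite dyes, the common sign is a common direction only if 1 RNA was the numerator on every array. On the reading Cy5 over Cy3 mouse 1 would lie below the pool and mice 2 to 4 above it. No swap component exists, and 83 of the 20794 spots (0.399%) had values on 4 arrays or fewer.

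The glucocorticoid receptor binds DNA at a palindrome whose core is AGAACA, or TGTTCT on the other strand. The core was sought on both strands in the RefSeq promoter windows of the 3 genes (GRCm38.p6, 250 bases before to 50 after the gene's start), and the full palindrome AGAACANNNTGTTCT as well. The window of Sult1a1, chr7:126676369-126676668 on the minus strand, is printed because it was the only one of the 3 to hold a core, with the cores in capitals.
Sult1a1: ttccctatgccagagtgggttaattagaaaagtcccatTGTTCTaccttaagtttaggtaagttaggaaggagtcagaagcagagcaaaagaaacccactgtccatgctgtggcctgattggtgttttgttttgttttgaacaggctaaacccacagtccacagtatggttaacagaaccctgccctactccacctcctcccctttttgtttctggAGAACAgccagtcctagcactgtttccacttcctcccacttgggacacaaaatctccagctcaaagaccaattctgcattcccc

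The arms start at bases 39 and 217 of that window. Of all 32851 promoter windows 19% held at least 1 arm and 2.54% held 2 or more. The full palindrome occurred in 3 windows and in none of these 3 genes. A match is a string of letters and not a binding site, and its absence from the windows of Hsd11b1 and Plin4 says nothing of the receptor elsewhere. Among the other responsive genes measured here, 1 of 18 with a promoter window held an arm.

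Plin4, the lipid droplet protein, was below the array median on 7 of 8 arrays. Its log2 ratios were -0.33, -0.06, -0.33 and -0.98 with the mutant in Cy5. With the mutant in Cy3 they were 0.07, -1.12, -1.30 and -1.60 in the same order of mice. The orientations overlapped through mouse 1, whose value of 0.07 was the highest of all 8, and mouse 4 was the lowest in both. The mean ratio was -0.13, -0.59, -0.81 and -1.29, a mean of -0.71 ± 0.482 (SD, n = 4). The swap component was -0.20, 0.53, 0.48 and 0.31, a mean of 0.28 ± 0.334. By absolute mean ratio Plin4 stood at the 70.4th percentile of all spots, against the 99.8th for Sult1a1. The spot at the same number in the annotation, 6808, also had a negative mean ratio (-0.66 ± 0.529). So did the neighbouring spot 6820, named Nfkbia, at -0.67.

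**Figure D3:**
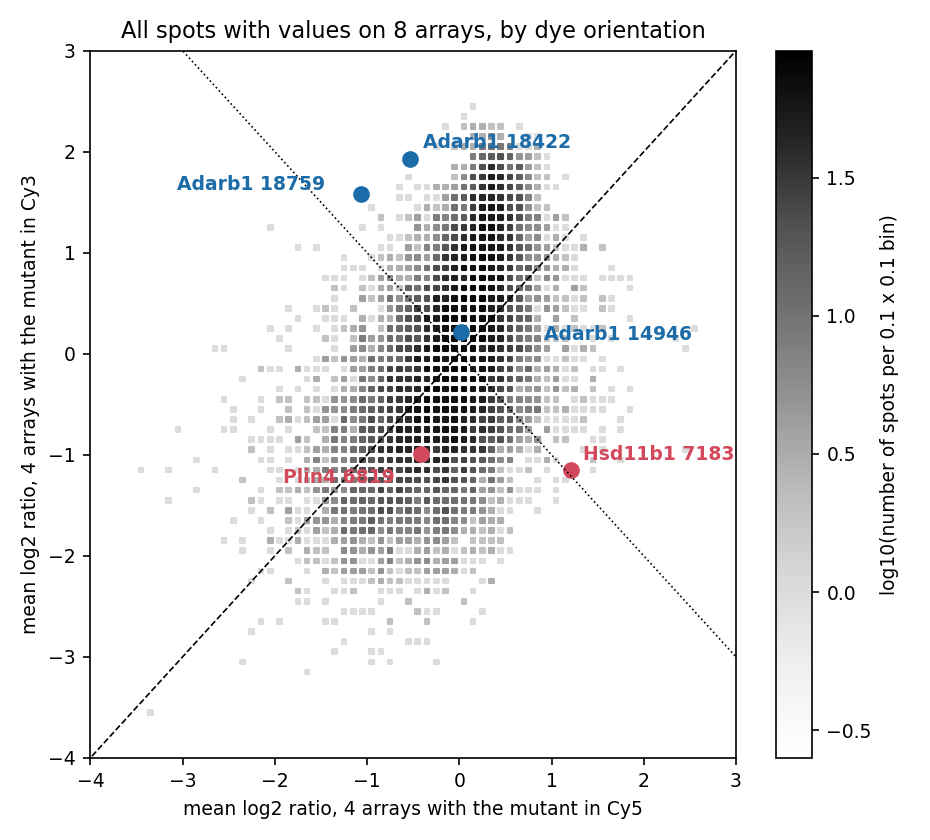
Mean log2 ratio of the 4 arrays with the mutant in Cy3 (vertical axis) against that of the 4 arrays with the mutant in Cy5 (horizontal axis), array medians subtracted, with grey squares for the number of spots per bin and labelled points for the spots of Hsd11b1, Plin4 and Adarb1 that have all 8 values. The dashed line marks equal values, the dotted line opposite ones, and Hsd11b1 spot 7183 (1.21 and -1.15) lies close to the dotted line, on the other side of the cloud from Adarb1 spots 18422 and 18759.

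The genes whose 8 values came closest to spot 7183 were Tsga10 at spot 10402, Gpc6 at spot 2561 and Tekt2 at spot 5797. Their root mean square differences from it over the 8 arrays were 0.233, 0.355 and 0.418 on the log2 scale, and the median over 11100 named spots was 1.49. Their swap components were 1.16, 1.02 and 1.01. Tekt2 encodes a tektin of cilia and flagella and Gpc6 a glypican of the cell surface. For Plin4 the closest were Zpr1 at spot 13658, Gps2 at spot 14730 and Fosl1 at spot 1822, with differences of 0.289, 0.296 and 0.306 against a median of 1.2. Of these 3 genes all were low in both orientations on average. Such an order over 8 arrays of 4 mice is a description.

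The other genes of the pathway were tested in a fit over all named genes, with the spots of a gene averaged. A call concerns mutant against pool only on the reading of the numerator that its quantity needs. Limma called 2505 of 8605 genes in the mean ratio at an adjusted p under 0.05 (29.1%; 17.5% positive and 11.6% negative), and 641 of 8119 in the swap component (7.90%; 1.07% positive and 6.82% negative). Values as deposited moved the median of all genes in the mean ratio from -0.02 to -0.18, and positive calls from 60% to 39.3% of calls. Calls in the mean ratio fell to 1164, 1215 and 1415 without mouse 2, 3 and 4, and none was made when only arrays carrying mutant RNA in Cy5 were used (limma, 2007 genes at an unadjusted p under 0.05). As deposited the swap component had no call (limma, 2423 genes at an unadjusted p under 0.05). It had none either without mouse 1, 2, 3 or 4 (1781 to 2337 at an unadjusted p under 0.05). Of the pathway calls in the swap component below, Klf9 and Sult4a1 also passed with runs of 48 spots centred (adjusted p = 0.0475 and 0.0473), while Per1 and Bcl6 did not (0.0629 and 0.0644).

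Among genes that supply, receive or drive the hormone signal, 4 of 19 were positive and 1 negative in the mean ratio (26.3% called), near the share of all genes. Their median was 0.27, that of all genes -0.02. Nr3c1, the glucocorticoid receptor, had a mean ratio of 0.56 ± 0.147 (moderated SE, n = 4, limma adjusted p = 0.0372), with the mice at 0.81, 0.73, 0.23 and 0.47. Crhr1, the receptor for corticotropin-releasing hormone, had 0.81 ± 0.127 (adjusted p = 0.00983, limma). Avp, the vasopressin precursor, had 0.88 ± 0.207 (adjusted p = 0.0275), and Dnaja1, a co-chaperone of the HSP70 family, 0.88 ± 0.114 (adjusted p = 0.0076). Serpina6, which encodes the corticosteroid-binding globulin of plasma, was the negative call with array medians subtracted, at -1.10 ± 0.233 (adjusted p = 0.02). Nr3c1 and Avp missed the threshold as deposited (adjusted p = 0.0668 and 0.0754) and with runs of 48 spots centred (0.088 and 0.123). Ncoa1, a coactivator of nuclear receptors, gained a negative call under both (adjusted p = 0.031 and 0.0157, limma), from -0.39 ± 0.117 (adjusted p = 0.0557). The chaperone genes Hsp90aa1, Stip1 and Hspa4 gained positive calls with runs centred (adjusted p = 0.0222, 0.0114 and 0.027). The split was thus 2 positive and 2 negative as deposited, and 5 and 2 with runs centred. Over all 8605 genes it was 975 and 1506 as deposited, and 1199 and 753 with runs centred. Without mouse 1, 2, 3 or 4 the count of 5 fell to 3, 3, 3 and 2. Crhr1 and Dnaja1 passed in all 4 of these fits, Serpina6 in 2, Avp in 1 and Nr3c1 in 0.

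The nearest relatives of Hsd11b1 in function gave no call. Hsd11b2, which inactivates corticosterone, had -0.14 ± 0.268 in the mean ratio (moderated SE, n = 4, limma adjusted p = 0.722) and -0.11 ± 0.189 in the swap component (adjusted p = 0.721). H6pd, which makes NADPH for Hsd11b1, was read by 3 spots and had -0.05 ± 0.148 (adjusted p = 0.804) in the former and 0.12 ± 0.138 (adjusted p = 0.584). Its spots had swap components of -0.44, 0.06 and 0.74, so they too differed in sign. Pomc, the precursor of the hormone that drives the adrenal cortex, had the highest swap component of this group, 0.91 ± 0.218 (limma adjusted p = 0.0549), with all 4 mice above 0 (0.53, 1.72, 0.87 and 0.52). No gene of the 19 passed in the swap component, where 7.90% of all genes did (limma). Nr3c2 was not analysed here.

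Of the other glucocorticoid-responsive genes 5 of 20 were positive and 1 negative in the mean ratio, 30% against the 29.1% of all genes. Their median was 0.05. Glul, glutamine synthetase, was highest with 1.25 ± 0.116 (moderated SE, n = 4, limma adjusted p = 0.00755), with the mice between 1.17 and 1.35. Mt1, a metallothionein, had 1.01 ± 0.117 (adjusted p = 0.00755) and Klf9, a hormone-induced transcription factor, 0.72 ± 0.124 (adjusted p = 0.0121). Klf9 averaged -0.05 over the 4 arrays where the mutant was in Cy5 and 1.49 over the others. Ehd3 and Rhob, which act in membrane traffic, had 0.51 ± 0.142 and 0.47 ± 0.12 (adjusted p = 0.0449 and 0.0356), and both missed the threshold as deposited (adjusted p = 0.096 and 0.0943) and with runs of 48 spots centred (0.0892 and 0.109). Per1 gained a positive call with runs centred, at 0.80 (adjusted p = 0.039, limma), from 0.53 ± 0.159 (adjusted p = 0.0539). The split was 3 positive and 1 negative as deposited, and 4 and 1 with runs centred, against 975 and 1506, and 1199 and 753, over all 8605 genes. The spots of Rhob were 1.11 and -0.18. Nfkbia, the inhibitor of NF-kappa-B, had -0.67 ± 0.177 (adjusted p = 0.038). It was read by spot 6820, next to Plin4 spot 6819. Its mice stood at -0.21, -0.54, -0.87 and -1.07, those of Plin4 at -0.13, -0.59, -0.81 and -1.29. Whether these neighbouring spots share an effect of their place on the array was not tested. Without mouse 1, 2, 3 or 4 the count of 6 fell to 4, 3, 2 and 3. Glul and Mt1 passed in all 4 of these fits, Klf9 in 2, Nfkbia in 1, and Ehd3 and Rhob in 0.

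In the swap component 3 of these 20 genes passed, all negative (15%, against 6.82% negative over all genes). Bcl6, a transcriptional repressor, had -0.79 ± 0.129 (moderated SE, n = 4, limma adjusted p = 0.0297), with mean ratios of -1.32 and 0.80 at its spots 349 and 18018. Spot 349 had values on 6 arrays, so the average of Bcl6 does not hold the same spots on every array. The swap components of these spots were -0.93 and -0.51. With only spots that have 8 values, 2 of the 20 responsive genes passed, both negative, against 755 of 8107 over all genes. Klf9 had -0.77 ± 0.129 (adjusted p = 0.0297), and Per1, a clock gene with a well-known glucocorticoid response, had -0.55 ± 0.114 (adjusted p = 0.0429). All 4 mice lay below 0 for each of the 3. The sign is opposite to that of Hsd11b1 spot 7183, and 554 of the 641 calls over all genes were negative too. The difference between Hsd11b1 and these genes was not tested. Fkbp5, Sgk1 and Tsc22d3, often used as markers of receptor activity, were not analysed here.

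Genes of sulfate transfer, the setting of Sult1a1, had 2 positive and 3 negative calls of 9 in the mean ratio (55.6%, against 29.1% of all genes, 17.5% positive and 11.6% negative), with a median of -0.08. Sult4a1, a brain sulfotransferase with no firmly known substrate, had 1.14 ± 0.141 (moderated SE, n = 4, limma adjusted p = 0.00755), and its spots stood close together at 1.09 and 1.20. Its swap component was -0.67 ± 0.101 (adjusted p = 0.0297). This was the 1 call among the 9 genes there (11.1%, against 7.90% of all genes). Sult2b1, a sterol sulfotransferase, had a mean ratio of -0.92 ± 0.171 (limma adjusted p = 0.0145). Papss1, which makes the sulfate donor, had -1.44 ± 0.296 (adjusted p = 0.0187), and Slc35b3, which carries that donor into the Golgi, had -0.60 ± 0.114 (adjusted p = 0.0151). Bpnt1, a phosphatase that removes the spent donor, had 0.81 ± 0.141 (adjusted p = 0.0122) and 0.28 with runs of 48 spots centred (adjusted p = 0.169). Without mouse 2, 3 or 4 the count of 5 fell to 1, 3 and 3. Over the 4 fits with 1 mouse left out, Sult4a1 passed in 4, Bpnt1 in 3, Sult2b1 and Papss1 in 2 and Slc35b3 in 1. With 9 genes measured, the share is not precise, and the cytosolic relatives Sult4a1 and Sult2b1 had opposite signs.

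In the swap component none of the lipid droplet genes measured beside Plin4 was called (limma), against 7.90% of all genes. In the mean ratio they had 5 positive and 1 negative calls of 26 (23.1%, against 29.1% of all genes). The split was 4 positive and 3 negative as deposited, and 3 and 3 with runs of 48 spots centred. All 8605 genes had 975 and 1506 as deposited, and 1199 and 753 with runs centred. Their median was -0.38, and 7 of 26 lay above 0. The other perilipins had values on the same side as Plin4 and did not pass with array medians subtracted, with Plin1 at -0.43 ± 0.168 (moderated SE, n = 4, limma adjusted p = 0.107), Plin2 at -0.52 ± 0.284 (adjusted p = 0.211) and Plin3 at -0.40 ± 0.346 (adjusted p = 0.417). The negative call with array medians subtracted was Fabp4, the fatty acid binding protein of adipocytes, at -0.88 ± 0.193 (limma adjusted p = 0.0223). Bscl2, the seipin of droplet formation, had 0.87 ± 0.114 (adjusted p = 0.00767). Rab18, a GTPase of droplets and the endoplasmic reticulum, had 0.88 ± 0.131 (adjusted p = 0.00898), Hsd17b11, a droplet dehydrogenase, 0.88 ± 0.144 (adjusted p = 0.0108), and Spg20, the spartin that binds droplets, 0.77 ± 0.137 (adjusted p = 0.0133). Fitm2 had 0.56 ± 0.131 (adjusted p = 0.0265) and missed the threshold as deposited (adjusted p = 0.0659). Centring runs of 48 spots also ended the calls of Fitm2 and Hsd17b11 (adjusted p = 0.894 and 0.0829). With 1 mouse left out, Bscl2, Rab18 and Hsd17b11 passed in all 4 fits, Spg20 in 3, Fabp4 in 2 and Fitm2 in 0. Negative calls were gained by Plin1 and Fitm1 with runs centred, at -0.68 and -0.93 (adjusted p = 0.0485 and 0.0495, limma), and by Agpat2 and Lpin1, enzymes of glycerolipid synthesis, as deposited, at -0.64 and -0.52 (adjusted p = 0.0414 and 0.0472).

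**Figure D4:**
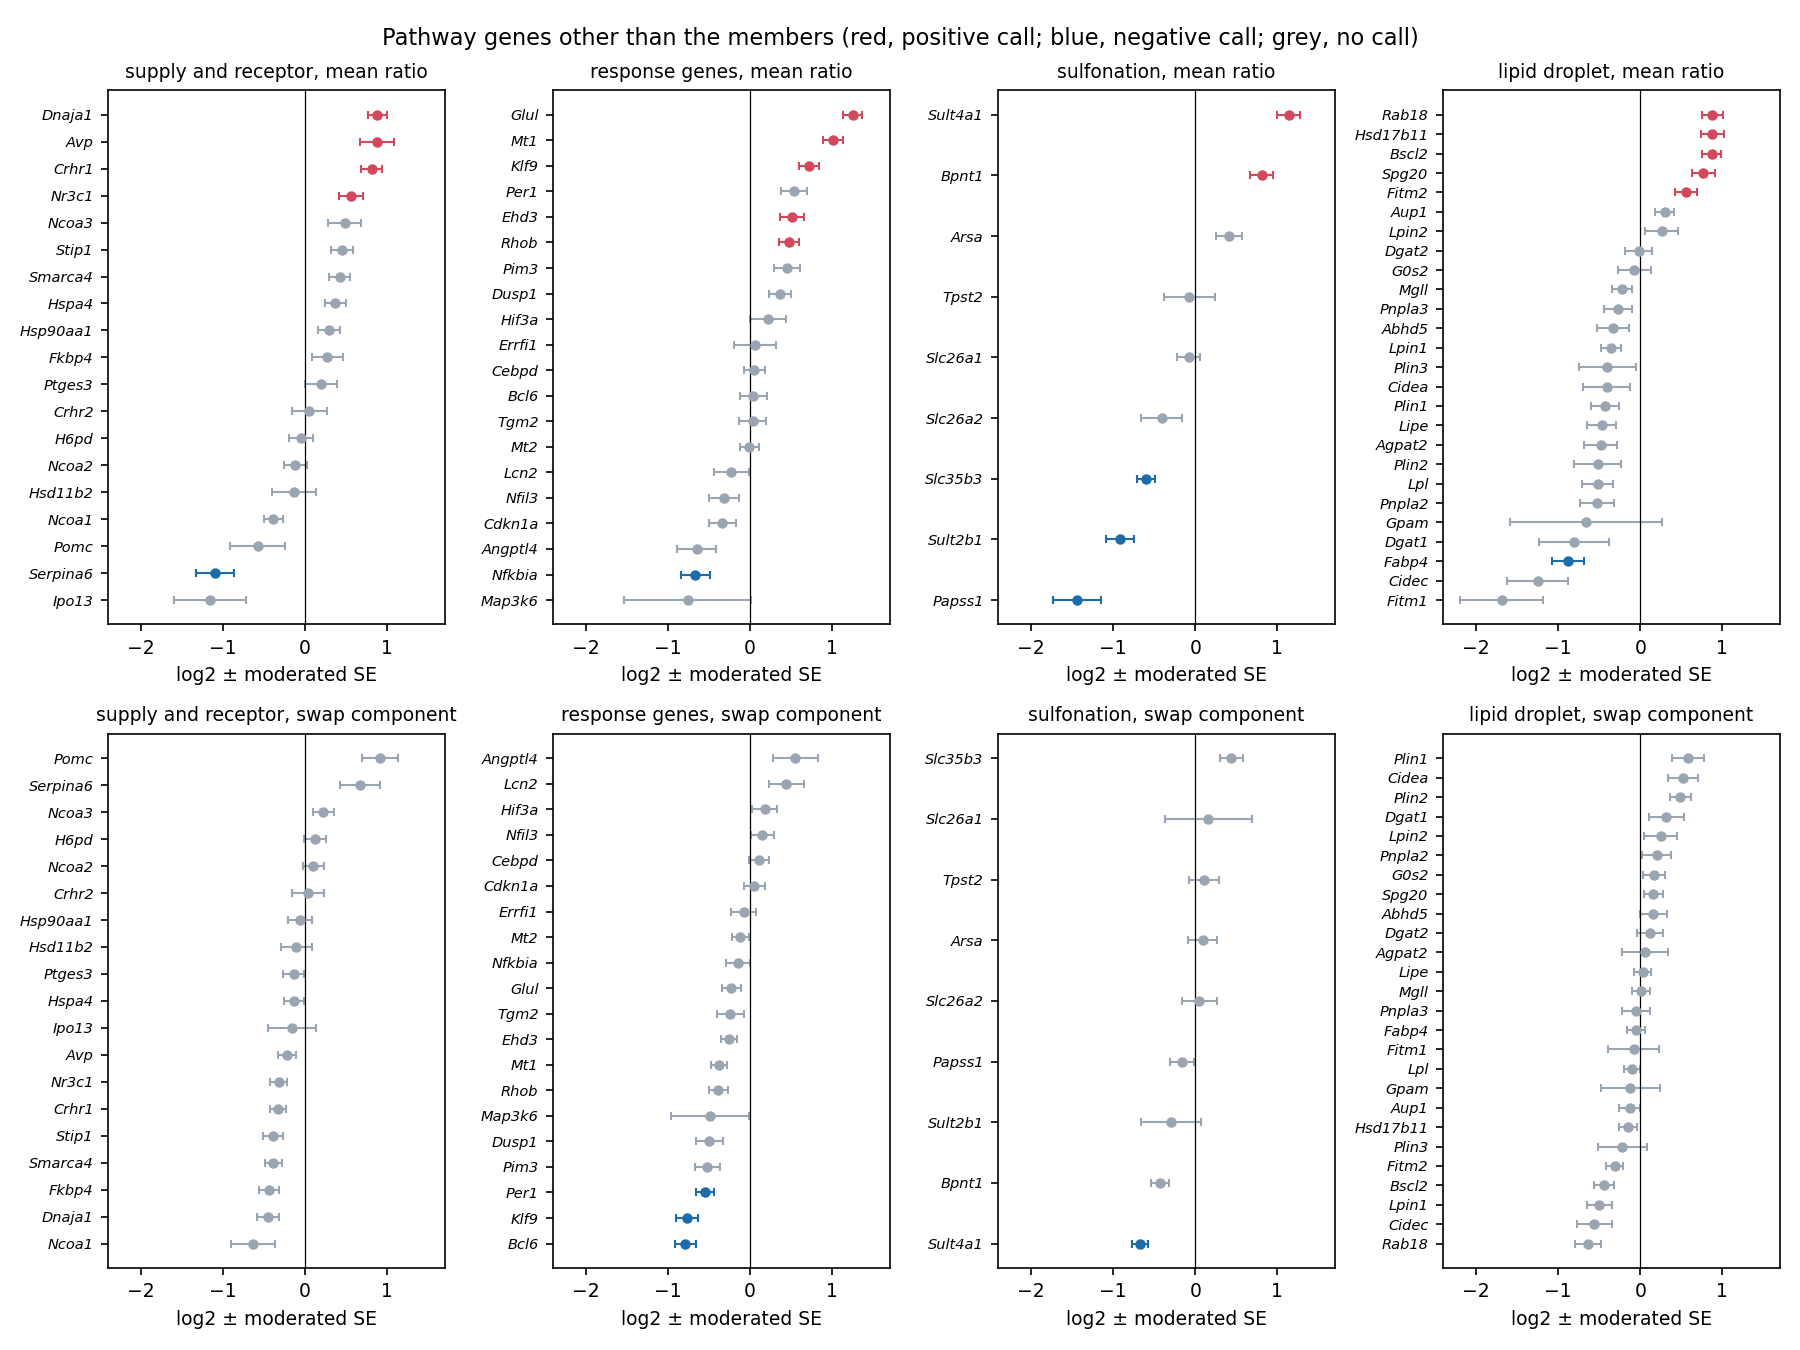
Mean ratio (upper panels) and swap component (lower panels) of pathway genes other than Hsd11b1, Sult1a1 and Plin4 (log2, array medians subtracted, points with the moderated SE of limma, n = 4 mice), coloured by call. In the lower panels the 4 called genes, Per1, Klf9, Bcl6 and Sult4a1, are all negative. Of the 641 calls over all genes in the swap component, 554 are negative.

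Marker lists of cell types that could carry these genes were set beside them. In the swap component, where spot 7183 stood out, no marker passed among 4 of choroid plexus and ependyma, 15 of meninges and 9 of endothelium and pericytes, while 3 of 16 astrocyte markers were negative (18.8%, against 6.82% negative over all genes). These were Clu, Apoe and Slc1a3 at -0.72, -0.63 and -0.55 (limma adjusted p = 0.0297, 0.034 and 0.048). Apoe also passed with runs of 48 spots centred (adjusted p = 0.0476), Clu and Slc1a3 did not (0.0544 and 0.0644), and none passed as deposited (0.0541 to 0.0719). In the mean ratio, astrocyte markers had 7 positive and 1 negative calls of 16 (50%, against 29.1% of all genes) and a median of 0.33. Glul is in that list too. Choroid plexus and ependyma markers had 1 positive and 3 negative of 7 (57.1%), meningeal markers 3 and 2 of 16 (31.2%), and endothelial and pericyte markers 2 and 1 of 12 (25%). The part of any cell type in the values of Hsd11b1, Sult1a1 and Plin4 was not tested.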

How the data were processed

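Total RNA was isolated from brain, reverse transcribed and labelled indirectly with Cy3 or Cy5, per the labels' protocols. The deposited values behave as log2 ratios between channels, shifted on each array by 1 constant, a scale read from the values themselves. The sources used here do not give the scanner, background correction, normalization, numerator or centring. Medians as deposited ran from -0.571 to -0.0045. A top code at a ratio of 100000 (1 to 30 spots on an array) was set to missing, and 221 to 553 further cells of each array were empty.

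Array medians were subtracted. Names came from the platform annotation at a shift of 11 spots, up to annotated spot 20000, with symbols updated through RefSeq gene identifiers (GRCm38.p6; 12771 of 12771 matched). Spots of a gene were averaged, then a mouse's 2 arrays, and limma 3.58.1 (R 4.3.3; lmFit, eBayes, intercept only) tested the 4 mice against 0 with Benjamini-Hochberg adjustment over all genes (threshold 0.05). A gene needed a value in every mouse, and on both arrays of every mouse for the swap component. The pool counts as 1 control sample, and p-values leave out its spread.

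The 3 genes and the pathway and marker lists were chosen with earlier results of these data known. Named genes were all spots of the 3 genes and of Adarb1, pathway genes past the threshold (at most 6 per list and quantity), and the nearest relatives of the 3 genes. Pomc, the 3 astrocyte markers with a swap call and pathway genes that passed under an alternative scaling alone were named after their values were seen. Alternatives were values as deposited, runs of 48 spots centred, whole-number ratios left out, each mouse left out, 1 dye orientation, spots with 8 values, 1 spot per gene and names at the same spot number.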

Additional observations from a re-analysis of the deposited data

Results flagged for a closer look

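The measure that picks out a single value among 4 was applied to 103 groups of 4 mice or arrays, and it picked out 3, where chance gives about 1 in 20. At Adarb1 spot 18422 the array of mouse 4 with the mutant in Cy3 stood at 1.82, and the other 3 lay between 1.96 and 1.98. In the mean ratio of Per1, mouse 2 stood at 0.06 and the others between 0.66 and 0.73. In the mean ratio of Klf9, mouse 3 stood at 0.93 and the others between 0.63 and 0.67. No spot of Hsd11b1 or Plin4 was picked out, and Sult1a1 was measured this way over the 4 mice alone.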

How the results depend on the processing

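The swap component of Hsd11b1 spot 7183 was 1.14 to 1.27 without 1 mouse and 1.07 to 1.29 under the other settings that keep its name. At the same spot number it was -0.28. Its mean ratio was 1.21 with the mutant in Cy5 alone, -1.15 with the mutant in Cy3 alone, and -0.47 at the same spot number. Spot 6433 had a mean ratio of 0.52 with the mutant in Cy3 alone and -1.57 at the same spot number. Sult1a1 had -3.99 with the mutant in Cy5 alone (1 array), -0.24 at the same spot number and -2.63 to -1.58 without 1 mouse. Plin4 had a swap component of -0.24 at the same spot number, and a mean ratio of -0.90 to -0.51 without 1 mouse. Calls in the mean ratio were 0 over all genes and in each pathway list with the mutant in Cy5 alone (limma, 2007 genes at an unadjusted p under 0.05). With the mutant in Cy3 alone, 10 of 20 responsive and 8 of 19 supply and receptor genes passed, against 2622 of 8271 over all genes. With 1 spot per gene 9 of 19 supply and receptor genes passed, against 2532 of 8604 over all genes. At the same spot number 3 of 9 sulfate genes passed, against 2358 of 8599 over all genes. Without 1 mouse, calls over all genes were 1164 to 1742, in the responsive list 2 to 4, in supply and receptor 2 to 3, in sulfate transfer 1 to 5 and in lipid droplet genes 4 to 7. In the swap component, calls over all genes, in the responsive list and in sulfate transfer were 0 as deposited and without any 1 mouse. Calls over all genes were 275 of 8119 with runs of 48 spots centred and 392 of 8041 at the same spot number. They were 939 of 6176 with whole-number ratios left out and 737 of 8107 with 1 spot per gene. Supply and receptor genes had 1 call with whole-number ratios left out, with 1 spot per gene and at the same spot number. Lipid droplet genes had 2 with whole-number ratios left out and 1 at the same spot number, and responsive genes 1 there. The cause of these changes was not tested. Leaving out a mouse also leaves fewer samples.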
